A study of Mus musculus with 12 samples.

Results

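Experimental cerebral malaria (ECM) brain was compared with control brain over every gene of the count table. The comparison used 8 of the 12 libraries of the series, 4 of ECM brain and 4 of control brain, and 14626 of the 21983 genes in the table had enough reads to be tested. The mice of all groups were wild-type C57BL/6, 6 weeks old. The control group was labelled as normal mice, and the ECM group as mice with experimental cerebral malaria and no drug. The remaining 4 libraries, from ECM mice given artesunate for 4 days, were fitted together with the 8 but not compared. They entered the filter on reads, the scaling and the estimate of the spread between libraries. They also entered the mean behind each library's deviation, and the offsets and covariates of the fits below. The labels do not name the parasite, the day of sampling or the part of the brain taken, and they do not say that each library came from a separate animal, so the p-values measure the spread between these libraries.

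Cerebral malaria is a complication in which parasitised red cells and leukocytes gather in small brain vessels, interferon-driven inflammation activates the endothelium, and the blood-brain barrier leaks. The brain around those vessels holds neurons, astrocytes, oligodendrocytes and microglia, whose RNA makes up most of a whole-brain library. Inflammation of this kind also raises circulating glucocorticoids, hormones that act through a nuclear receptor on genes carrying its binding element.

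The 8 libraries held 13342177 to 18886822 reads in genes, and they differed in ways that the group labels do not give. The summed level of 12 cerebellum markers was 1753, 2620.0, 2735 and 224 CPM (read counts scaled to library depth) in control libraries 1 to 4 and 118, 4623, 78.3 and 1342 CPM in ECM libraries 1 to 4. Control 4, ECM 1 and ECM 3 thus held little cerebellum RNA. Mitochondrial genes took 5.69, 5.78, 6.67 and 10.7% of the reads in control brain and 7.89, 15.2, 13.2 and 5.54% in ECM brain. The rank correlation of each library's deviation with the GC content of genes ran from -0.677 in control 4 to 0.567 in ECM 4. The groups overlapped in these 3 measures, with exact permutation p = 0.543 for the cerebellum score, 0.257 for the mitochondrial share and 0.971 for GC (two-sided, smallest possible p 0.0286, adjusted over 5 measures 0.679, 0.429 and 0.971). The first principal component of the 8 libraries, with 43.2% of the variance, set the groups apart.

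**Figure D1:**
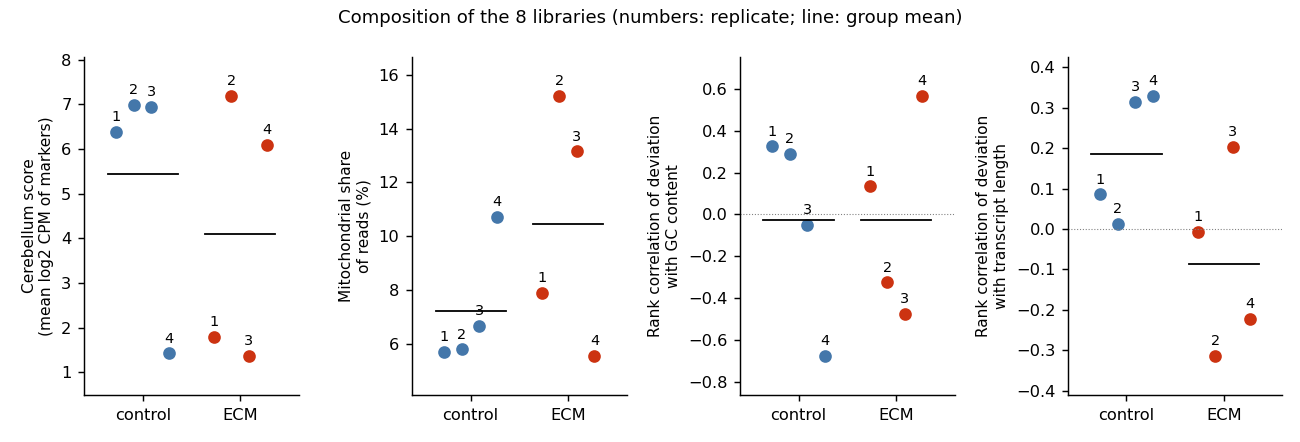
Composition of each library: cerebellum score (mean log2 CPM of 12 markers), mitochondrial share of reads in percent, and the rank correlation over genes of the library's deviation with GC content and with transcript length. Points are libraries, labelled by replicate number, and lines are group means; control 4, ECM 1 and ECM 3 sit at a cerebellum score below 2.

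ECM brain differed from control brain mainly by genes that rose, and most of those genes lay outside a set of immune genes given by name patterns. Of the 14626 tested genes, 1037 rose (7.09%) and 460 fell (3.15%) at an edgeR adjusted p below 0.05. Fitted with only the 8 control and ECM libraries, 718 rose and 148 fell. The following counts are those of the fit with the treated libraries. The immune set had 615 tested members, of which 375 rose (61.0%) and 4 fell (0.65%). Among the other 14011 genes, 662 rose (4.72%) and 456 fell (3.25%). Genes outside the immune set were 63.8% of those that rose; the name patterns do not take in every gene of immune cells, and Acod1, Msr1, Plaur, Gpr65, Mmp8 and Slc15a3, described below, lie outside the set. Those outside changed less: the median log2 fold change of the genes that rose was 1.36 outside the set and 3.03 within it. The genes that fell had a median log2 fold change of -0.84, against -0.02 over all tested genes. A rise of at least 8-fold was called for 266 genes and a fall of that size for 4. Of the genes that rose, 317 had a control mean below 1 CPM.

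The called genes also took different shares of the libraries' reads, given here as a description because the same libraries chose the genes. Genes of the immune set that rose took 0.196 to 0.204% of the reads in control brain and 0.991 to 1.51% in ECM brain. The other genes that rose took 1.84 to 1.97% in control brain and 3.6 to 5.15% in ECM brain. The genes that fell took 1.98 to 2.29% in control brain and 1.17 to 1.29% in ECM brain.

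**Figure D2:**
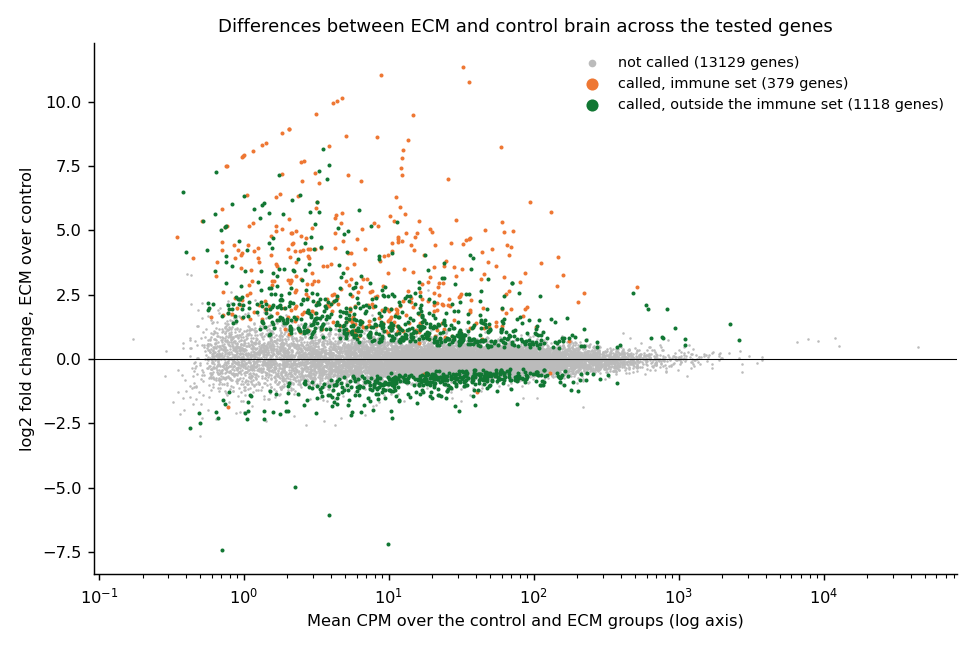
Mean CPM of the 2 groups (log axis) against the log2 fold change of ECM over control brain for the 14626 tested genes. Each point is a gene; green points are the 1118 called genes outside the immune set and orange points the 379 called genes within it, and the points far below 0 are few.

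Each gene was fitted again in 4 ways that bear on library composition: with an offset for GC content, with the cerebellum score as a covariate, with the mitochondrial share as a covariate, and without the 3 libraries whose mitochondrial share was above 10% (control 4, ECM 2 and ECM 3). These are called the composition fits below. Of the genes that rose, 919 (88.6%) rose in all 4, which is 6.28% of the tested genes. Of those that fell, 380 (82.6%) fell in all 4, or 2.6% of the tested genes. In turn, these fits called 1400, 1586, 1523 and 1554 genes higher (9.57, 10.8, 10.4 and 10.5% of the genes each tested) and 937, 1198, 1315 and 1168 lower (6.41, 8.19, 8.99 and 7.87%), a larger share of falls than in the main model. No gene was called in opposite directions by any of these fits, and 185 genes that missed the threshold in the main model (82 higher, 103 lower) were called in all 4. The libraries of the groups did not overlap for 947 of the 1037 and 424 of the 460. Over all tested genes 8.68% lay wholly higher and 5.6% wholly lower. Some genes named below were chosen by a rule that requires groups not to overlap, so this is given for them as a description. The authors' deposited table for this comparison lists 1459 genes, and 978 of the 981 genes called here with at least 2-fold change are among them, 67.0% of that table and 99.7% of the 981, with 0 in the opposite direction.

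The genes outside the immune set that rose most were nearly silent in control brain. Values of a group are given in the order of libraries 1 to 4, log2 fold changes with ± SE from the model, and group means with ± SD (n = 4). Acod1, which makes itaconate in activated macrophages, was at 0, 0.194, 0 and 0 CPM in control and 2.91, 10.9, 10.9 and 4.96 CPM in ECM libraries. Its 3 control reads against the ECM reads gave a ratio of 143 with a 95% counting interval of 48.7 to 699. F10, coagulation factor X, was at 0.0553, 0, 0 and 0 CPM in control and 5.82, 7.64, 7.95 and 6.56 CPM in ECM libraries, a ratio of 421 with a 95% counting interval of 75.04 to 16654. Slc10a6, a carrier of sulphated steroids, was at 0, 0, 0 and 0.143 CPM in control and 6.14, 10.3, 7.7 and 6.72 CPM in ECM libraries, a ratio of 230.4 with a 95% counting interval of 63.4 to 1909. In each of these genes 3 of the 4 control libraries held no read, and no ECM library fell below 2.91 CPM.

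Receptors and enzymes of myeloid cells followed. Plaur, the urokinase receptor, was at 0.332, 0.518, 1.14 and 0.214 CPM in control and 22.7, 25.9, 17.2 and 22.8 CPM in ECM libraries (log2 fold change 5.34 ± 0.56, edgeR adjusted p = 3.001e-05). Ch25h, which makes 25-hydroxycholesterol, was at 0.553, 0.259, 0.685 and 0.0714 CPM in control and 9.21, 25.1, 7.87 and 16.1 CPM in ECM libraries (log2 fold change 5.18 ± 0.52, edgeR adjusted p = 1.78e-05). Msr1, a macrophage scavenger receptor, rose from 0.303 ± 0.238 to 10.1 ± 4.04 CPM (log2 fold change 4.99 ± 0.54, edgeR adjusted p = 3.74e-05). Hp, the haemoglobin scavenger haptoglobin, rose from 0.312 ± 0.261 to 9.52 ± 2.07 CPM (log2 fold change 4.85 ± 0.55, edgeR adjusted p = 5.15e-05). No ECM library of these 4 genes overlapped a control library. Markers of leukocytes moved with them: the summed level of 8 monocyte and macrophage markers was 8.79 to 10.4 CPM in control and 155 to 382 CPM in ECM libraries, and that of 9 T and NK cell markers 9.07 to 14.2 and 82.2 to 158 CPM. Cd8a, a chain of the cytotoxic T cell coreceptor, was at 0, 0.194, 0.0761 and 0 CPM in control and 8.81, 13.8, 8.45 and 10.8 CPM in ECM libraries. Gzmb, granzyme B, was at 0, 0.0648, 0.0761 and 0 CPM in control and 46.4, 101, 64.6 and 74.4 CPM in ECM libraries. Ly6c2, of inflammatory monocytes, was at 0.0553, 0.0648, 0 and 0 CPM in control and 17.6, 50.4, 27.3 and 22.9 CPM in ECM libraries. These 3 genes were at or near 0 in every control library. Neutrophil markers reached 5.67 to 9.27 CPM in ECM libraries (1.07 to 2.89 in control), and none of the 4 B cell markers had enough reads to be tested. The part of leukocyte RNA in the rises of these and the following genes was not tested. In whole-brain RNA, more or fewer cells of a type and more or less RNA per cell cannot be told apart.

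Among 93 orphan and lipid G protein-coupled receptors, 13 rose (background 4.72%) and 8 fell (3.25%), 12 and 7 of them in all composition fits. Among those that rose were receptors known from leukocytes. Gpr65, a proton sensor, was at 0.221, 0, 0.228 and 0 CPM in control and 4.8, 9.35, 8.2 and 3.63 CPM in ECM libraries (log2 fold change 5.72 ± 0.7001, edgeR adjusted p = 1.01e-04). Gpr141 was at 0, 0.0648, 0 and 0.285 CPM in control and 3.31, 13.2, 5.47 and 3.25 CPM in ECM libraries (log2 fold change 6.098 ± 0.89, edgeR adjusted p = 4.16e-04). Among those that fell were Gpr34 (known from microglia) and Gpr17 and Lpar1 (oligodendrocyte lineage), whose values are given below. Adora3, an adenosine receptor, was the 1 riser among 50 monoamine, acetylcholine and adenosine receptors (from 0.622 ± 0.301 to 2.42 ± 0.969 CPM, log2 fold change 1.95 ± 0.38, edgeR adjusted p = 0.00443), and 5 of the 50 fell.

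Several of the most abundant brain transcripts also rose. Fam107a, an actin-bundling protein of astrocytes and neurons, was at 524, 464, 661 and 632 CPM in control and 912, 1962, 1129 and 1278 CPM in ECM libraries (log2 fold change 1.21 ± 0.22, edgeR adjusted p = 0.00218). Mt1, metallothionein 1, which binds zinc and copper (chromosome 8, bases 94179082 to 94180327 of GRCm38), was at 301, 331, 394 and 356 CPM in control and 1089, 2481, 855 and 868 CPM in ECM libraries (log2 fold change 1.94 ± 0.31, edgeR adjusted p = 0.00102). Apod, the lipid carrier apolipoprotein D, was at 202, 266, 248 and 307 CPM in control and 793, 1511, 783 and 834 CPM in ECM libraries (log2 fold change 1.94 ± 0.23, edgeR adjusted p = 9.27e-05). The lowest ECM library of each of these genes lay above the highest control library, and ECM 2 was the highest in all 3. Actb, cytoplasmic actin, rose by a smaller and steadier amount, from 821 ± 34.2 to 1389 ± 214 CPM (log2 fold change 0.76 ± 0.14, edgeR adjusted p = 0.00274).

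Fth1, the ferritin heavy chain, was at 1833, 1929.8, 1435 and 2588 CPM in control and 2491, 3898, 3947 and 2702 CPM in ECM libraries (log2 fold change 0.74 ± 0.205, edgeR adjusted p = 0.0342). Control 4 lay above ECM 1, and the call ended without ECM 2, ECM 3, control 1, control 2 and control 3, each left out in turn (edgeR adjusted p up to 0.111), and with a length offset (edgeR adjusted p = 0.108). Mobp, a myelin protein, was at 529, 775, 459 and 408 CPM in control and 1211, 719, 962 and 1072 CPM in ECM libraries (log2 fold change 0.87 ± 0.22, edgeR adjusted p = 0.0228). It lost the call without ECM 1, ECM 4, control 1 and control 3 (edgeR adjusted p up to 0.0801) and without control 4, ECM 1 and ECM 3 (0.13). mt-Nd6, the one light-strand mitochondrial message, was the only one called among 12 tested mitochondrially encoded mRNAs. It was at 1302, 1081, 1602 and 1150.4 CPM in control and 2405, 6798, 2378 and 1428 CPM in ECM libraries (log2 fold change 1.34 ± 0.37, edgeR adjusted p = 0.0327), held the call in 2 of the 4 composition fits and lost it without any one control library (edgeR adjusted p up to 0.0886). All 12 of these mRNAs had a positive log2 fold change, with a median of 0.74, beside the mitochondrial shares given above. In the fits with 1 library left out that lost the call, the log2 fold change was 0.62 to 0.74 for Fth1, 0.77 to 0.85 for Mobp and 1.27 to 1.46 for mt-Nd6, close to the values over all libraries. Without ECM 2, mt-Nd6 kept the call at a log2 fold change of 0.705 (edgeR adjusted p = 0.0348). Of the 10 most abundant genes that fell, 8 did so by less than 2-fold. Setd7, a lysine methyltransferase, was at 281, 309, 312 and 275 CPM in control and 173, 158, 165 and 170.4 CPM in ECM libraries (log2 fold change -0.82 ± 0.12, edgeR adjusted p = 3.43e-04).

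**Figure D3:**
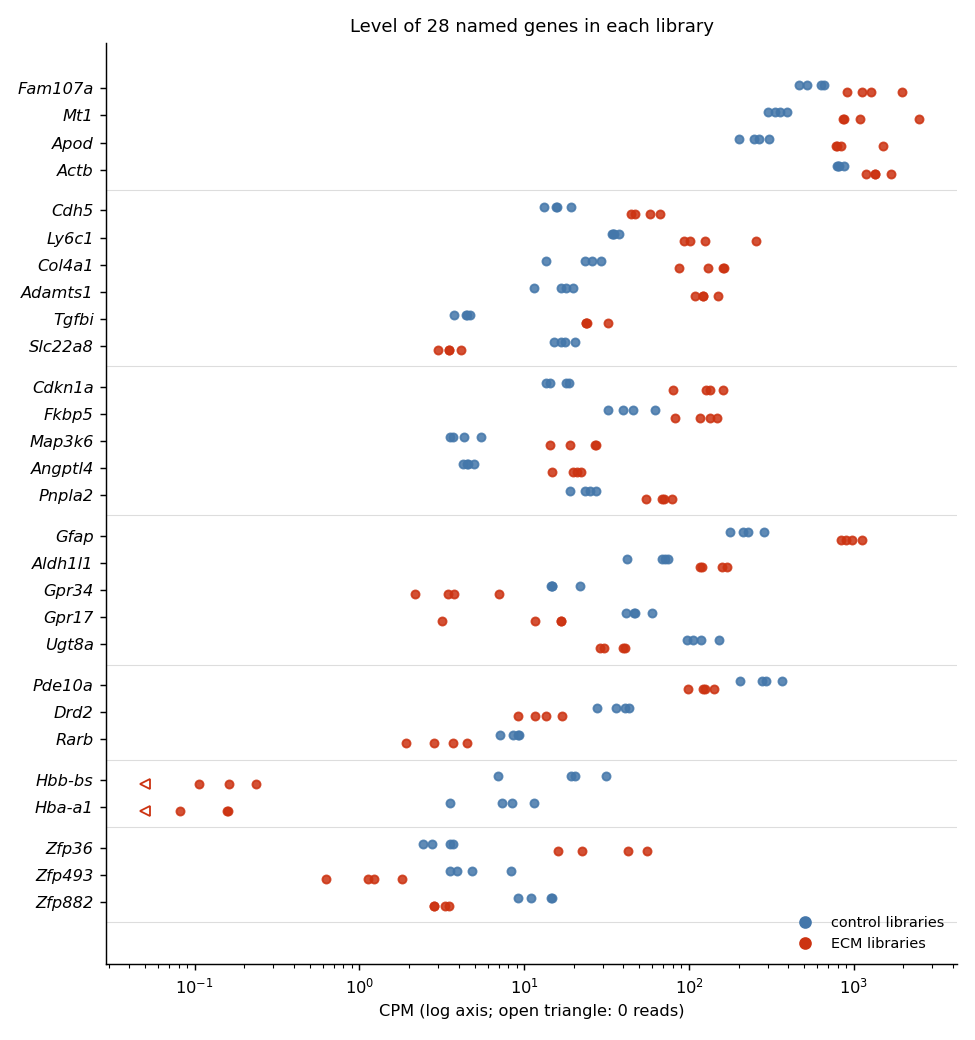
CPM (log axis) of 28 named genes in each of the 4 control (blue) and 4 ECM (red) libraries; open triangles mark libraries with 0 reads. The groups do not overlap for any of the 28 genes, which were chosen with the results known, some by a rule that requires this. The largest gaps are those of the globin genes.

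Glucocorticoid-responsive genes were among those that rose. Of 18 tested members of the list, 12 rose and 0 fell, against backgrounds of 4.72% and 3.25%, and 18 of 18 had a positive log2 fold change, with a median of 1.26. The 12 rose in all composition fits. Cdkn1a, the cell-cycle inhibitor p21 (chromosome 17, bases 29090976 to 29100727), was at 14.4, 13.6, 18.8 and 17.8 CPM in control and 127, 162, 80.3 and 135 CPM in ECM libraries (log2 fold change 2.96 ± 0.22, edgeR adjusted p = 1.48e-06). Fkbp5, a chaperone that restrains the glucocorticoid receptor, was at 45.6, 32.3, 40.01 and 62.5 CPM in control and 133, 82.7, 148 and 117 CPM in ECM libraries (log2 fold change 1.41 ± 0.26, edgeR adjusted p = 0.00242). Map3k6, a stress kinase of vascular cells, was at 4.31, 3.69, 5.48 and 3.57 CPM in control and 26.8, 14.4, 18.9 and 27.1 CPM in ECM libraries (log2 fold change 2.35 ± 0.31, edgeR adjusted p = 1.58e-04). Control and ECM libraries were apart in all 3 genes.

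Mt2, metallothionein 2, was at 155, 173, 183 and 54.8 CPM in control and 711, 1709.7, 254 and 637 CPM in ECM libraries (log2 fold change 2.55 ± 0.501, edgeR adjusted p = 0.00444); control 4 and ECM 3 were the lowest library of their group. Sult1a1, a sulphotransferase, rose from 10.6 ± 5.05 to 61.5 ± 18.9 CPM (log2 fold change 2.54 ± 0.35, edgeR adjusted p = 2.69e-04). Sgk1, the serum- and glucocorticoid-regulated kinase (chromosome 10, bases 21882184 to 21999903), was at 102, 97.3, 128 and 226 CPM in control and 305, 392, 256 and 282 CPM in ECM libraries (log2 fold change 1.16 ± 0.28, edgeR adjusted p = 0.0184), and its call ended without control 1, control 2 and control 3 (edgeR adjusted p up to 0.0612). Tsc22d3, the leucine zipper GILZ and a standard reporter of the hormone, missed the threshold at 117, 142, 119 and 119 CPM in control and 163, 308, 142 and 166 CPM in ECM libraries (log2 fold change 0.65 ± 0.24, edgeR adjusted p = 0.122), although no ECM library was below a control library. Nr3c1, the glucocorticoid receptor itself, fell from 149 ± 21.5 to 96.1 ± 7.61 CPM (log2 fold change -0.63 ± 0.14, edgeR adjusted p = 0.00849). With only the 8 control and ECM libraries its edgeR adjusted p was 0.0598. Nr3c1 was 1 of 3 nuclear receptors of 38 that fell (7.89%, background 3.25%), beside Rarb and Rxrg, and 0 of the 38 rose.

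Because most of these genes moved in 1 direction, the 250 bases before each gene's start (RefSeq, GRCm38.p6) were searched on both strands for the glucocorticoid response element, taken as the half-sites GNACA and TGTNC with 3 bases between them. Of 11386 tested genes with such a window, 40 held a match (0.351%). Among genes that rose outside the immune set, 9 of 498 did (1.81%), against 1 of 290 that rose within it (0.345%), 1 of 372 that fell (0.269%) and 29 of 10226 not called (0.284%). The 6 stretches below are shown because their genes include the abundant and the steepest risers; capitals mark the match, with flanking bases on either side, on the strand of the gene.
Sgk1: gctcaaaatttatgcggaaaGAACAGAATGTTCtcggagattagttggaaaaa
Mt1: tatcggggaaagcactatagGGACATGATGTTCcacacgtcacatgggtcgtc
Fam107a: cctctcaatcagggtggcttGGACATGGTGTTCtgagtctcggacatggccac
Map3k6: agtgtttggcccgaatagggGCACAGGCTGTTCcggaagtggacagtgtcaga
Slc10a6: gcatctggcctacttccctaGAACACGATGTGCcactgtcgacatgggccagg
Txnip: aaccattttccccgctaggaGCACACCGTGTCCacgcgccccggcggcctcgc
They lie at chr10:21993682-21993734 (plus strand), chr8:94178975-94179027 (plus), chr14:8309865-8309917 (minus), chr4:133240617-133240669 (plus), chr5:103629534-103629586 (minus) and chr3:96557765-96557817 (plus), and the matches begin 188, 94, 118, 181, 163 and 172 bases before a RefSeq start of the gene. None overlaps an annotated exon of its gene, and those of Sgk1 and Fam107a lie in introns of longer transcripts. Txnip, a thioredoxin inhibitor that limits glucose uptake, was at 33.01, 35.8, 35.3 and 51.03 CPM in control and 97.3, 163, 111 and 113 CPM in ECM libraries (log2 fold change 1.64 ± 0.25, edgeR adjusted p = 5.89e-04). The remaining genes that rose with a match were Tinagl1 (log2 fold change 1.88), Folh1 (1.31), Amy1 (1.23) and, in the immune set, Serpina3n (2.99); the call of Amy1 ended without ECM 1, ECM 2, ECM 4, control 1, control 2 and control 3 (edgeR adjusted p up to 0.121). Eml1 was the gene that fell with a match (-0.81). Cdkn1a, Fkbp5, Mt2 and Sult1a1, described above, were not among the genes that rose with a match. A match is a run of letters and does not show that the receptor binds there. The part of the hormone in the rises of the glucocorticoid list and of the genes with a match was not tested.

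Searched the same way, the interferon-stimulated response element, taken as GAAA repeated after 2 bases, was present in 18.3% of genes of the immune set that rose, 5.82% of other genes that rose, 2.15% of genes that fell and 2.79% of genes not called. The AP-1 site TGANTCA was present in 13.8%, 9.84%, 5.38% and 5.24% of the same groups. Matches of different motifs overlapped in 0 windows of tested genes. Over all 32851 windows of the table, 0.387% held the glucocorticoid element, 2.98% the interferon element and 6.75% the AP-1 site.

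Genes of lipid storage and release shared members with the glucocorticoid list. Of 24 genes of fatty acid metabolism and lipid droplets, 6 rose and 3 fell (25% and 12.5%, backgrounds 4.72 and 3.25%). Angptl4, a secreted inhibitor of lipoprotein lipase, was at 4.26, 4.47, 4.56 and 4.92 CPM in control and 19.9, 22.1, 14.7 and 20.96 CPM in ECM libraries (log2 fold change 2.09 ± 0.305, edgeR adjusted p = 4.21e-04). Pnpla2, the triglyceride lipase of lipid droplets, was at 25.2, 27.4, 23.3 and 18.8 CPM in control and 68.7, 78.8, 54.8 and 70.4 CPM in ECM libraries (log2 fold change 1.52 ± 0.17, edgeR adjusted p = 3.84e-05). Plin2 and Plin4, proteins that coat the droplets, rose from 9.17 ± 4.05 to 25.9 ± 3.63 CPM (log2 fold change 1.498 ± 0.29, edgeR adjusted p = 0.0037) and from 6.31 ± 2.84 to 31.6 ± 12.03 CPM (log2 fold change 2.33 ± 0.49, edgeR adjusted p = 0.0074). Pdk4, which turns glucose oxidation down, rose from 12.9 ± 4.68 to 31.8 ± 7.45 CPM (log2 fold change 1.31 ± 0.29, edgeR adjusted p = 0.00915). Those that fell, named after their values were seen, were Fabp7, a fatty acid binding protein of radial glia and astrocytes (from 44.9 ± 28.5 to 12.7 ± 1.85 CPM, log2 fold change -1.82 ± 0.45, edgeR adjusted p = 0.0198), and the fatty acid elongases Elovl6 (from 105 ± 16.8 to 61.8 ± 7.91 CPM, log2 fold change -0.76 ± 0.14, edgeR adjusted p = 0.00353) and Elovl7 (log2 fold change -0.65). The call of Fabp7 ended without ECM 1, control 3 and control 4 (edgeR adjusted p up to 0.0611), each left out in turn, and that of Elovl7 without ECM 4 and control 2 (up to 0.0751). Without control 4, ECM 1 and ECM 3 together edgeR adjusted p was 0.173 for Fabp7 and 0.0664 for Elovl7, and Fabp7 held the call in 3 of the 4 composition fits. The other 15 were not called, and the median log2 fold change of the 24 was 0.03. Of 18 hypoxia-response genes 3 rose (16.7%, background 4.72%) and 0 fell: Adm, the vasodilator adrenomedullin, at 0.94, 1.43, 0.761 and 1.86 CPM in control and 11.02, 8.54, 13.005 and 13.9 CPM in ECM libraries (log2 fold change 3.22 ± 0.32, edgeR adjusted p = 2.07e-05), the glycolytic regulator Pfkfb3 (1.13) and the glucose transporter Slc2a1 (0.93), both with a log2 fold change near 1.

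Several junction and surface genes of brain endothelium rose, and its carriers moved in both directions. Of 15 endothelial markers, 7 rose and 2 fell (46.7 and 13.3%, backgrounds 4.72 and 3.25%), all in each composition fit. The summed level of the 15 was 544 to 573 CPM in control and 844 to 1038 CPM in ECM libraries. Cdh5, the cadherin of endothelial junctions, was at 15.6, 19.3, 13.2 and 15.9 CPM in control and 66.7, 44.6, 57.8 and 46.9 CPM in ECM libraries (log2 fold change 1.75 ± 0.18, edgeR adjusted p = 2.48e-05). Ly6c1, a surface protein of brain endothelium, was at 34.5, 34.1, 37.3 and 35.1 CPM in control and 92.9, 257, 101 and 125 CPM in ECM libraries (log2 fold change 2.03 ± 0.29, edgeR adjusted p = 4.12e-04). Pecam1, an adhesion molecule also on leukocytes, was at 25.8, 27.5, 27.9 and 47.03 CPM in control and 81.9, 90.4, 115 and 71.2 CPM in ECM libraries (log2 fold change 1.48 ± 0.24, edgeR adjusted p = 9.1e-04). Groups did not overlap in these 3 genes. Cldn5, the claudin of the barrier, was at 26.99, 26.8, 20.2 and 6.85 CPM in control and 60.6, 82.2, 26.8 and 92.05 CPM in ECM libraries (log2 fold change 1.69 ± 0.41, edgeR adjusted p = 0.0174). ECM 3 lay within the control range, and the call ended without ECM 4 and control 3 (edgeR adjusted p up to 0.0517). The other risers were the carriers Slc2a1 and Mfsd2a (0.92, edgeR adjusted p = 0.0693 without control 4, ECM 1 and ECM 3), and Emcn (1.16). The call of Emcn ended without ECM 2, ECM 3, control 1, control 2 and control 3 (edgeR adjusted p up to 0.108).

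The 2 endothelial markers that fell were Tek, the angiopoietin receptor Tie2 (from 20.5 ± 4.41 to 12.1 ± 0.97 CPM, log2 fold change -0.76 ± 0.18, edgeR adjusted p = 0.0153), and the organic anion carrier Slco1a4 (-0.84), whose call ended without ECM 1, ECM 3, ECM 4, control 1, control 2, control 3 and control 4 (edgeR adjusted p up to 0.126) and without control 4, ECM 1 and ECM 3 together (0.267). Other carriers of the barrier fell further. Slc22a8, an organic anion exporter, had the largest fall outside the globins among genes of at least 5 CPM that kept their call in all composition fits, at 16.8, 17.6, 20.4 and 15.1 CPM in control and 2.99, 4.15, 3.48 and 3.52 CPM in ECM libraries (log2 fold change -2.304 ± 0.23, edgeR adjusted p = 1.63e-05). Slco1c1, which carries thyroid hormone, was at 52.9, 50.9, 56.98 and 62.4 CPM in control and 18.7, 19.2, 22.5 and 20.9 CPM in ECM libraries (log2 fold change -1.45 ± 0.15, edgeR adjusted p = 2.22e-05). Slc38a5, a glutamine carrier, was at 5.2, 2.66, 2.51 and 2.14 CPM in control and 0.551, 1.63, 0.58 and 0.373 CPM in ECM libraries (log2 fold change -2.03 ± 0.45, edgeR adjusted p = 0.00943; edgeR adjusted p = 0.0566 without control 4, ECM 1 and ECM 3). Slc40a1, the iron exporter ferroportin, fell from 11.3 ± 1.01 to 5.19 ± 1.16 CPM (log2 fold change -1.12 ± 0.21, edgeR adjusted p = 0.00358), and Itm2a, a membrane protein of endothelium, fell from 60.7 ± 8.005 to 17.7 ± 6.15 CPM (log2 fold change -1.78 ± 0.23, edgeR adjusted p = 1.54e-04). Gkn3, known from arterial endothelium and named after its values were seen, was at 4.04, 5.51, 5.17 and 2.78 CPM in control and 0.0787, 0.325, 0.166 and 0 CPM in ECM libraries (log2 fold change -4.99 ± 0.62, edgeR adjusted p = 1.09e-04). Abcb1a, the drug efflux pump of the barrier, was not called, at 52.9, 55.99, 54.8 and 78.6 CPM in control and 46.1, 53.4, 66.3 and 46.5 CPM in ECM libraries (log2 fold change -0.19 ± 0.18, edgeR adjusted p = 0.606). The 286 solute carriers as a family showed 15 rises and 12 falls (5.24 and 4.196%, near the backgrounds of 4.72 and 3.25%), with a median log2 fold change of -0.06; Slc28a2, a nucleoside carrier with 2 control reads, was at 0.0553, 0, 0.0761 and 0 CPM in control and 2.75, 2.52, 1.74 and 3.84 CPM in ECM libraries, a ratio of 86.4 with a 95% counting interval of 23.5 to 719.6. Slc15a3, a histidine and peptide carrier of phagocytes, rose (from 1.32 ± 0.529 to 10.5 ± 3.78 CPM, log2 fold change 2.97 ± 0.39, edgeR adjusted p = 1.89e-04).

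Both chains of the main collagen of the basement membrane and several matrix proteases were among the genes that rose. Col4a1 (chromosome 8, bases 11198423 to 11312826), the collagen IV chain of the vascular basement membrane, was at 25.7, 29.3, 23.5 and 13.6 CPM in control and 161, 130.1, 86.6 and 164 CPM in ECM libraries (log2 fold change 2.56 ± 0.27, edgeR adjusted p = 3.46e-05). Col4a2, its partner chain, rose from 24.3 ± 3.73 to 95.95 ± 28.01 CPM (log2 fold change 1.98 ± 0.24, edgeR adjusted p = 8.7e-05). With Col5a3 (log2 fold change 1.603) they were the risers among 41 collagens (7.32%, background 4.72%), whose median log2 fold change was -0.19. Of 11 laminins, the other large family of basement membrane proteins, 0 rose and 1 fell (9.09%, background 3.25%), with a median of -0.04. The call of Col5a3 ended without ECM 1, ECM 4, control 2, control 3 and control 4 (edgeR adjusted p up to 0.122). Adamts1, a protease of matrix proteoglycans, was at 17.8, 19.7, 16.7 and 11.5 CPM in control and 121, 122, 109 and 150.2 CPM in ECM libraries (log2 fold change 2.93 ± 0.27, edgeR adjusted p = 1.01e-05). Adamts9 rose from 4.12 ± 1.2 to 28.1 ± 8.76 CPM (log2 fold change 2.76 ± 0.39, edgeR adjusted p = 3.1e-04). The protease inhibitor Timp1 rose from 0.273 ± 0.109 to 2.89 ± 2.16 CPM (log2 fold change 3.34 ± 0.71, edgeR adjusted p = 0.00756). Mmp8, a collagenase of neutrophils, rose from 0.102 ± 0.157 to 3.09 ± 1.35 CPM (log2 fold change 4.69 ± 0.78, edgeR adjusted p = 0.00136). With Adam8 (2.07) these were the 5 risers among 53 metalloproteinases and inhibitors (9.43%, background 4.72%), of which 1 fell (1.89%, background 3.25%). Thrombospondin 1, Thbs1, and fibulin 5, Fbln5, rose from 4.2 ± 1.1 to 19.4 ± 4.26 CPM (log2 fold change 2.21 ± 0.25, edgeR adjusted p = 5.68e-05) and from 10.1 ± 1.32 to 44.3 ± 32.4 CPM (log2 fold change 2.14 ± 0.39, edgeR adjusted p = 0.00243).

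Tgfbi, a matrix protein induced by TGF-beta, was at 4.7, 3.76, 4.49 and 4.42 CPM in control and 23.7, 32.2, 23.7 and 23.9 CPM in ECM libraries (log2 fold change 2.57 ± 0.18, edgeR adjusted p = 1.07e-06). Tgfb1, the ligand, rose from 5.93 ± 0.927 to 13.99 ± 3.35 CPM (log2 fold change 1.24 ± 0.22, edgeR adjusted p = 0.00253). Of 28 genes of the BMP and TGF-beta pathway 5 rose and 3 fell (17.9 and 10.7%, backgrounds 4.72 and 3.25%). Among those that fell was Id4, an inhibitor of differentiation in progenitors and astrocytes (from 156 ± 47.6 to 76.4 ± 14.8 CPM, log2 fold change -1.03 ± 0.202, edgeR adjusted p = 0.00449). Epha2 and Robo4, endothelial receptors filed with axon guidance, rose from 2.02 ± 0.503 to 8.06 ± 2.2 CPM (log2 fold change 1.99 ± 0.27, edgeR adjusted p = 2.51e-04) and from 5.92 ± 2.06 to 14.8 ± 2.54 CPM (log2 fold change 1.32 ± 0.27, edgeR adjusted p = 0.00598). Kcnj8, a potassium channel of pericytes, and Tagln, of smooth muscle, rose by log2 1.299 and 1.197 and were the 2 called among 12 mural markers (16.7%, background 4.72%).

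Astrocyte genes moved in both directions. Gfap, the intermediate filament that marks reactive astrocytes (chromosome 11, bases 102887336 to 102900912), was at 227, 287, 214 and 177 CPM in control and 1124, 832, 893 and 981 CPM in ECM libraries (log2 fold change 2.08 ± 0.24, edgeR adjusted p = 5.21e-05). Aldh1l1, the folate enzyme used as a pan-astrocyte marker, was at 68.8, 74.6, 71.05 and 41.8 CPM in control and 159, 120.5, 117 and 171 CPM in ECM libraries (log2 fold change 1.15 ± 0.19, edgeR adjusted p = 0.00146). Groups were apart in both. Of 12 astrocyte markers 3 rose and 1 fell (backgrounds 4.72 and 3.25%), 2 and 1 of them in all composition fits. The summed level of the 12 overlapped between groups (5889 to 7123 CPM in control, 5831 to 6875 CPM in ECM). The one that fell was Gli3, the repressor of hedgehog signalling (from 11.6 ± 1.28 to 5.98 ± 1.38 CPM, log2 fold change -0.96 ± 0.22, edgeR adjusted p = 0.0108). Tuba1c, a tubulin, rose from 0.856 to 8.86 CPM (log2 fold change 3.35 ± 0.37, edgeR adjusted p = 3.85e-05).

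Of 10 markers of oligodendrocyte precursors 2 fell, and of 15 myelin markers 2 fell and 1, Mobp, rose. Gpr17, the receptor of committed precursors, was at 46.1, 60.01, 41.3 and 47.2 CPM in control and 11.6, 3.17, 16.6 and 16.7 CPM in ECM libraries (log2 fold change -2.01 ± 0.37, edgeR adjusted p = 0.00288). Ugt8a (chromosome 3, bases 125865271 to 125938619), which makes the myelin lipid galactosylceramide, was at 106, 153, 97.1 and 118 CPM in control and 39.98, 30.6, 40.8 and 29.01 CPM in ECM libraries (log2 fold change -1.75 ± 0.19, edgeR adjusted p = 3.71e-05). Lpar1, which is in neither marker list, was at 45.01, 62.1, 45.2 and 62.5 CPM in control and 18.1, 32.2, 22.5 and 20.2 CPM in ECM libraries (log2 fold change -1.21 ± 0.21, edgeR adjusted p = 0.00157). The highest ECM library lay below the lowest control library in all 3. The remaining 12 myelin markers were not called. The summed level of the 15 was 7602 to 13601 CPM in control and 7959 to 9503 CPM in ECM.

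Microglial markers had 3 falls (30.0%, background 3.25%) and 0 rises among 10, with 2 of the falls in all composition fits. Gpr34 and Sall1 were among the 3 that fell, and P2ry12 was not. Gpr34 was at 14.5, 14.6, 14.8 and 21.9 CPM in control and 3.46, 7.07, 3.73 and 2.19 CPM in ECM libraries (log2 fold change -2.01 ± 0.39, edgeR adjusted p = 0.00428). Sall1, a factor that keeps microglial identity, was at 21.3, 25.01, 40.01 and 54.8 CPM in control and 15.2, 10.001, 14.2 and 20.4 CPM in ECM libraries (log2 fold change -1.24 ± 0.31, edgeR adjusted p = 0.0226). P2ry12, the purinergic receptor of resting microglia, was at 43.5, 45.6, 44.9 and 101 CPM in control and 19.1, 38.1, 30.5 and 15.2 CPM in ECM libraries (log2 fold change -1.19 ± 0.36, edgeR adjusted p = 0.0509). It missed the threshold in the main model and passed it in each composition fit. Control 4 was the highest library in Gpr34, Sall1 and P2ry12. The call of Sall1 ended without ECM 1, ECM 2, control 3 and control 4 (edgeR adjusted p up to 0.064). Without control 4, ECM 1 and ECM 3, edgeR adjusted p was 0.0644 for Gpr34, 0.139 for Sall1 and 0.224 for P2ry12. The summed level of the 10 markers overlapped between groups.

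Among 58 Klf, Sox and Fox transcription factors 5 rose and 2 fell, and among 38 Wnt ligands, receptors and targets 1 rose and 1 fell (backgrounds 4.72 and 3.25%). Some single genes known from progenitors were among the larger falls. Mycn, a driver of progenitor growth, was at 7.19, 5.7, 8.44 and 5.85 CPM in control and 2.75, 2.03, 0.994 and 2.19 CPM in ECM libraries (log2 fold change -1.76 ± 0.29, edgeR adjusted p = 0.00137). Pou3f4 and Sox21, factors of neural progenitors, fell from 10.5 ± 1.84 to 3.04 ± 0.665 CPM (log2 fold change -1.79 ± 0.24, edgeR adjusted p = 1.93e-04) and from 9.06 ± 2.08 to 3.37 ± 1.32 CPM (log2 fold change -1.41 ± 0.27, edgeR adjusted p = 0.00344). Fzd2, a Wnt receptor, was at 13.1, 11.02, 12.9 and 4.57 CPM in control and 3.23, 0.813, 1.16 and 4.48 CPM in ECM libraries (log2 fold change -2.07 ± 0.46, edgeR adjusted p = 0.0104), with control 4 just above ECM 4. Wnt10b, a Wnt ligand, rose from 1.2 ± 0.349 to 6.08 ± 1.51 CPM (log2 fold change 2.35 ± 0.3003, edgeR adjusted p = 1.39e-04). Cell-cycle genes went the other way: 10 of 27 rose (37.0%, background 4.72%), 8 of them in all composition fits, and 27 of 27 had a positive log2 fold change (median 0.83). Mki67, the proliferation marker, was at 1.44, 2.27, 2.36 and 5.14 CPM in control and 12.7, 10.1, 25.6 and 13.5 CPM in ECM libraries (log2 fold change 2.47 ± 0.39, edgeR adjusted p = 8.82e-04). Top2a and Ccnb2, of G2 and mitosis, rose from 3.52 ± 1.08 to 9.13 ± 2.003 CPM (log2 fold change 1.38 ± 0.27, edgeR adjusted p = 0.00461) and from 0.672 ± 0.223 to 2.88 ± 0.846 CPM (log2 fold change 2.1005 ± 0.33, edgeR adjusted p = 8.56e-04). Aurkb, a mitotic kinase, rose from 0.304 ± 0.208 to 1.56 ± 0.834 CPM (log2 fold change 2.33 ± 0.55, edgeR adjusted p = 0.0148). Leukocyte markers moved with the cell-cycle genes, as given above, and their part was not tested.

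Few neuronal genes were called in the main model. Of 12 excitatory and 12 inhibitory neuron markers and 19 synaptic vesicle genes, 0 passed edgeR's adjusted p below 0.05; 0, 1 and 2 had an unadjusted p below 0.05, and DESeq2 called 0 in each list. Of 25 glutamate receptors 1 fell, of 23 GABA and glycine receptors 1 rose and 1 fell, of 82 potassium channels 3 rose and 3 fell, and of 12 sodium channels 1 rose and 1 fell, beside backgrounds of 4.72% for rises and 3.25% for falls. Negative log2 fold changes were found for 21, 21, 60 and 11 of these genes, with medians of -0.35, -0.24, -0.21 and -0.32. With an offset for transcript length the medians were -0.18, -0.14, -0.15 and -0.17. The number that fell depended on the model: over the 4 composition fits it was 2, 8, 2 and 5 for glutamate receptors, 2, 5, 4 and 1 for GABA and glycine receptors, 7, 12, 4 and 3 for potassium channels and 2, 5, 1 and 2 for sodium channels. Those fits called 6.41, 8.19, 8.99 and 7.87% of all genes lower. The shares were 8, 32, 8 and 20% for glutamate receptors and 8.7, 21.7, 17.4 and 4.35% for GABA and glycine receptors. They were 8.54, 14.6, 4.88 and 3.66% for potassium channels and 16.7, 41.7, 8.33 and 16.7% for sodium channels. Gabra2, a GABA receptor subunit, fell from 60.5 ± 21.1 to 30.9 ± 7.44 CPM (log2 fold change -0.97 ± 0.23, edgeR adjusted p = 0.0166), and Scn2b, a sodium channel subunit, from 361 ± 74.5 to 213 ± 35.3 CPM (log2 fold change -0.76 ± 0.17, edgeR adjusted p = 0.0125). Scn10a, a sodium channel better known from sensory neurons, was at 0.608, 0, 0.304 and 0.571 CPM in control and 4.72, 1.95, 4.56 and 5.17 CPM in ECM libraries (log2 fold change 3.43 ± 0.603, edgeR adjusted p = 0.00201). Of 12 late activity-regulated genes 3 rose and 1 fell; Nptx2 and Sik1 rose from 30.8 ± 2.74 to 68.4 ± 33.3 CPM (log2 fold change 1.15 ± 0.26, edgeR adjusted p = 0.0127) and from 12.02 ± 2.99 to 28.4 ± 7.59 CPM (log2 fold change 1.24 ± 0.26, edgeR adjusted p = 0.00766).

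Several markers of striatal projection neurons fell. Of 10 such markers 5 fell and 0 rose, 4 of the 5 in all composition fits, with a median log2 fold change of -1.01, beside 1 fall among 10 cortex markers. By edgeR 0 markers of cerebellum, hippocampus, thalamus and olfactory bulb were called (0, 2, 0 and 0 at an unadjusted p below 0.05, and 0, 1, 0 and 0 by DESeq2). The 5 olfactory bulb markers had a median log2 fold change of -1.13, and 4 of them were negative. Cerebellum markers varied so widely within each group, as given above, that a difference between groups could hardly be called. Drd2, the dopamine D2 receptor (chromosome 9, bases 49340627 to 49408177), was at 27.5, 41.02, 42.98 and 36.3 CPM in control and 16.9, 13.5, 9.19 and 11.6 CPM in ECM libraries (log2 fold change -1.53 ± 0.21, edgeR adjusted p = 2.38e-04). Pde10a, the phosphodiesterase of these neurons, was at 203, 293, 369 and 277 CPM in control and 121, 141, 98.4 and 126 CPM in ECM libraries (log2 fold change -1.23 ± 0.18, edgeR adjusted p = 4.86e-04). Control and ECM libraries did not overlap in either gene. The difference of mean log2(CPM + 0.5) was also taken within libraries alike in cerebellum RNA, as a description. Among those holding it (control 1 to 3 against ECM 2 and 4) the difference was -1.505 for Drd2 and -1.07 for Pde10a. Among those holding little (control 4 against ECM 1 and 3) the difference was -1.4999 and -1.34, resting on 1 control library. Because the groups did not overlap in either gene, any such split gives negative differences in each part. The part of cerebellum content in these falls was therefore not tested by the split.

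Drd1, the D1 receptor, was at 26.4, 38.8, 48.5 and 33.7 CPM in control and 14.8, 31.4, 7.62 and 13.9 CPM in ECM libraries (log2 fold change -1.12 ± 0.33, edgeR adjusted p = 0.0492), with ECM 2 inside the control range. It and Rgs9 (log2 fold change -0.81) stood near the threshold: Drd1 lost the call without ECM 1, ECM 3, ECM 4, control 2, control 3 and control 4 (edgeR adjusted p up to 0.146) and Rgs9 without ECM 1, ECM 2, ECM 3, control 2 and control 3 (up to 0.116). Without control 4, ECM 1 and ECM 3, edgeR adjusted p was 0.166 for Drd1. Rarb and Rxrg, retinoid receptors enriched in striatum, fell from 8.51 ± 0.98 to 3.23 ± 1.11 CPM (log2 fold change -1.38 ± 0.26, edgeR adjusted p = 0.00314) and from 16.5 ± 5.75 to 6.11 ± 2.49 CPM (log2 fold change -1.43 ± 0.32, edgeR adjusted p = 0.0113). The serotonin receptor Htr1b fell from 25.7 ± 3.998 to 12.8 ± 4.13 CPM (log2 fold change -1.01 ± 0.22, edgeR adjusted p = 0.0082). The summed level of the 10 markers was 991 to 1593 CPM in control and 383 to 1239 CPM in ECM libraries, lowest in ECM 3. Which brain regions each library holds differed, as the cerebellum markers show, and the part of tissue sampling in the striatal values was not tested.

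Genes of the brain's borders moved in both directions. Of 14 markers of meningeal and perivascular fibroblasts 2 rose and 3 fell, and of 51 genes of ependyma and motile cilia 1 rose and 1 fell (backgrounds 4.72 and 3.25%). The fibroblast markers that rose were Gjb2, a connexin (from 9.99 ± 2.02 to 26.3 ± 7.85 CPM, log2 fold change 1.39 ± 0.25, edgeR adjusted p = 0.00214), and Aldh1a2, which makes retinoic acid (from 8.32 ± 0.542 to 18.3 ± 4.16 CPM, log2 fold change 1.14 ± 0.26, edgeR adjusted p = 0.0124), which held the call in 3 of the 4 composition fits (edgeR adjusted p = 0.0546 without control 4, ECM 1 and ECM 3). Edn3, the vasoactive peptide endothelin 3, was at 8.35, 9.2, 8.52 and 9.63 CPM in control and 1.18, 2.76, 2.48 and 1.49 CPM in ECM libraries (log2 fold change -2.18 ± 0.27, edgeR adjusted p = 1.24e-04). Lum, a proteoglycan of meningeal fibroblasts, and Slc22a6, an organic anion carrier of the meninges, fell from 4.76 ± 0.297 to 1.68 ± 0.78 CPM (log2 fold change -1.51 ± 0.31, edgeR adjusted p = 0.0059) and from 6.03 ± 1.11 to 2.12 ± 0.825 CPM (log2 fold change -1.49 ± 0.32, edgeR adjusted p = 0.00783). Ogn, a small proteoglycan and the remaining fibroblast marker that fell (log2 fold change -1.25), lost the call without ECM 1, ECM 4, control 2, control 3 and control 4 (edgeR adjusted p up to 0.109) and without control 4, ECM 1 and ECM 3 together (0.166). Sostdc1 of the choroid plexus was at 2.88, 1.81, 3.27 and 3.71 CPM in control and 0.157, 0.488, 0.414 and 1.44 CPM in ECM libraries (log2 fold change -2.13 ± 0.51, edgeR adjusted p = 0.0164; edgeR adjusted p = 0.109 without control 4, ECM 1 and ECM 3). Of 14 choroid plexus markers 3 fell (21.4%, background 3.25%), 0 of them in all composition fits. The summed level of the 14 ranged from 410 to 1217 CPM in control and 239 to 693 CPM in ECM libraries.

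Globin messages nearly vanished. Hbb-bs, a beta-globin (chromosome 7, bases 103826534 to 103828096), was at 20.2, 31.5, 19.3 and 6.92 CPM in control and 0.236, 0.163, 0 and 0.107 CPM in ECM libraries (log2 fold change -7.19 ± 0.803, edgeR adjusted p = 4.74e-05). Hba-a1, an alpha-globin, was at 8.41, 11.4, 7.38 and 3.57 CPM in control and 0.157, 0.0813, 0 and 0.16 CPM in ECM libraries (log2 fold change -6.07 ± 0.83, edgeR adjusted p = 2.41e-04). Hbb-bt was at 1.99, 2.53, 0.913 and 0.214 CPM in control and 0, 0, 0 and 0 CPM in ECM libraries, and was at least 27.6-fold lower when the ECM group is set at 3 reads in all. Alas2, the haem synthesis enzyme of red cell precursors, was low in control brain and not called (from 0.873 ± 0.456 to 0.159 ± 0.183 CPM, log2 fold change -2.29 ± 0.78, edgeR adjusted p = 0.0867). Near-identical globin copies share reads, so the split between copies is uncertain. The 6 erythroid markers summed to 11.6 to 47.4 CPM in control and 0 to 0.787 CPM in ECM libraries. With Gkn3, the 3 globin genes were the 4 genes that fell at least 8-fold.

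Among zinc finger genes named Zfp, falls were more frequent than rises. Of 326 tested, 26 fell (7.98%, background 3.25%) and 1 rose, 25 and 1 of them in all composition fits, and 233 had a negative log2 fold change (median -0.22). Zfp882 was at 9.18, 10.95, 14.7 and 14.6 CPM in control and 2.83, 3.5, 3.31 and 2.83 CPM in ECM libraries (log2 fold change -1.99 ± 0.21, edgeR adjusted p = 3.07e-05). Zfp493 was at 3.93, 3.56, 4.79 and 8.28 CPM in control and 0.63, 1.22, 1.82 and 1.12 CPM in ECM libraries (log2 fold change -2.097 ± 0.35, edgeR adjusted p = 0.0012). Zfp950 fell from 29.3 ± 15.3 to 10.3 ± 2.93 CPM (log2 fold change -1.51 ± 0.33, edgeR adjusted p = 0.00854). The 26 had log2 fold changes of -2.10 to -0.42, and in 24 the groups did not overlap. The one that rose, Zfp36, encodes the mRNA-destabilising protein tristetraprolin, which is not a transcription factor. It was at 3.54, 3.69, 2.74 and 2.43 CPM in control and 22.3, 42.4, 16.1 and 55.8 CPM in ECM libraries (log2 fold change 3.46 ± 0.36, edgeR adjusted p = 2.42e-05). Zfp transcripts have a median GC content of 44.7%, against 49.8% over tested genes. Among genes below the median GC content 10.3% of Zfp genes and 4.05% of other genes fell. In the composition fits 45, 64, 105 and 75 Zfp genes fell (13.8, 19.6, 32.2 and 23.0%, beside 6.41, 8.19, 8.99 and 7.87% of all genes), the most with the mitochondrial covariate. With the GC offset and cerebellum covariate together 90 fell (27.6%, beside 12.9%), without control 4, ECM 1 and ECM 3 it was 43 (13.2%, beside 4.77%), and with the length offset 26 (7.98%, beside 3.06%).

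Transcript length and GC content went with the calls. In the shortest decile of genes by transcript length 11.4% rose and 1.1% fell, with a median log2 fold change of 0.21. In the longest decile 2.06% rose and 5.15% fell, with a median of -0.23. The GC offset left these medians at 0.19 and -0.23. By GC content, 6.19% of the lowest decile rose and 4.4% fell, and 3.3% of the highest decile rose and 0.619% fell. Rises were most frequent in the seventh decile, at 9.62%. The libraries' rank correlation with length was 0.0853, 0.0121, 0.315 and 0.329 in control and -0.00807, -0.314, 0.202 and -0.222 in ECM brain (exact permutation p = 0.114, two-sided).

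**Figure D4:**
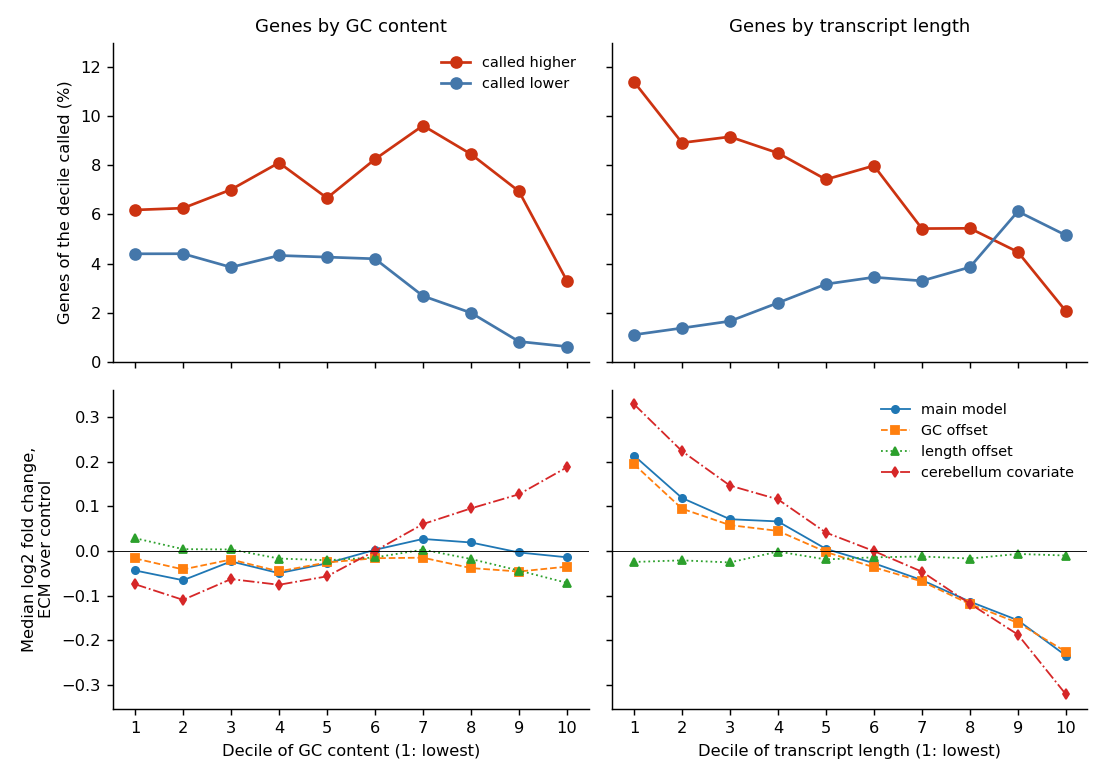
Genes sorted into deciles by GC content (left) and transcript length (right): percent called higher or lower (upper panels) and median log2 fold change under 4 models (lower panels). The medians run from 0.21 to -0.23 over length in the main model and stay near 0 with the length offset.

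Ribosomal protein genes, which are short, had positive log2 fold changes in 73 of 76 cases, with a median of 0.50. They took 0.482 ± 0.0374% of the reads in control and 0.649 ± 0.128% in ECM libraries (SD, n = 4, exact permutation p = 0.0571, adjusted over 5 measures 0.286). Of them 5 rose (6.58%, background 4.72%): Rps18, Rpl14, Rpl35a, Rps27l and Rps29, of which Rps18 alone did so in all 4 composition fits. Rps18 was at 47.2, 48.3, 40.3 and 55.4 CPM in control and 59.4, 114, 65.9 and 100.5 CPM in ECM libraries (log2 fold change 0.83 ± 0.2004, edgeR adjusted p = 0.0169), and its call ended without control 3 (edgeR adjusted p 0.0634) and with the length offset (0.0535). Rpl14 lost its call without control 1 and control 2 (edgeR adjusted p up to 0.0697), Rps27l without control 1, control 2 and control 3 (up to 0.118), Rpl35a without any one control library (up to 0.0804) and Rps29 without any one of the 8 (up to 0.118). Many pseudogene copies share reads with these genes, so their levels are uncertain. The number called was 10, 29, 5 and 17 in the composition fits, 3 with the length offset and 40 without control 4, ECM 1 and ECM 3. In that order the shares were 13.2, 38.2, 6.58, 22.4, 3.95 and 52.6%. Of all genes 9.57, 10.8, 10.4, 10.5, 7.34 and 9.69% rose in the same fits. Mrpl41, of the mitochondrial ribosome, rose from 36.8 ± 4.52 to 82.8 ± 24.9 CPM (log2 fold change 1.17 ± 0.197, edgeR adjusted p = 0.00146) and was the only one called among 75 such genes. Long genes lay on the other side: 66 protocadherins had a median log2 fold change of -0.40, with 1 called, and 65 axon guidance genes -0.29, with 3 higher and 2 lower. With the length offset these medians were 0.28 for the ribosomal proteins, -0.27 for the protocadherins and -0.19 for the axon guidance genes.

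Other housekeeping groups gave few calls in the main model, and some gave more in other models. Of 16 chaperones of the endoplasmic reticulum 0 were called by edgeR (1 at an unadjusted p below 0.05, 0 by DESeq2). Of 14 cytosolic heat shock chaperones 1 fell (background 3.25%). Of 78 nuclear-encoded subunits of oxidative phosphorylation 1 rose and 1 fell (backgrounds 4.72 and 3.25%), and 70 had a positive log2 fold change, with a median of 0.18. The number that rose was 2, 13, 1 and 2 in the composition fits, 13 without control 4, ECM 1 and ECM 3 (9.69% of all genes rose there), 14 with the GC offset and cerebellum covariate (13.7%), and 0 with the length offset (7.34%; list median -0.03). Of 33 proteasome subunits 0 were called by edgeR in the main model (9 at an unadjusted p below 0.05, 2 by DESeq2), and 33 of 33 had a positive log2 fold change, with a median of 0.299. The composition fits called 4, 8, 4 and 5 of them higher, the fit without control 4, ECM 1 and ECM 3 called 6, that with the GC offset and cerebellum covariate 14 and that with the length offset 0 (median 0.17). In that order the shares were 12.1, 24.2, 12.1, 15.2, 18.2, 42.4 and 0%. Of all genes 9.57, 10.8, 10.4, 10.5, 9.69, 13.7 and 7.34% rose in the same fits.

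**Figure D5:**
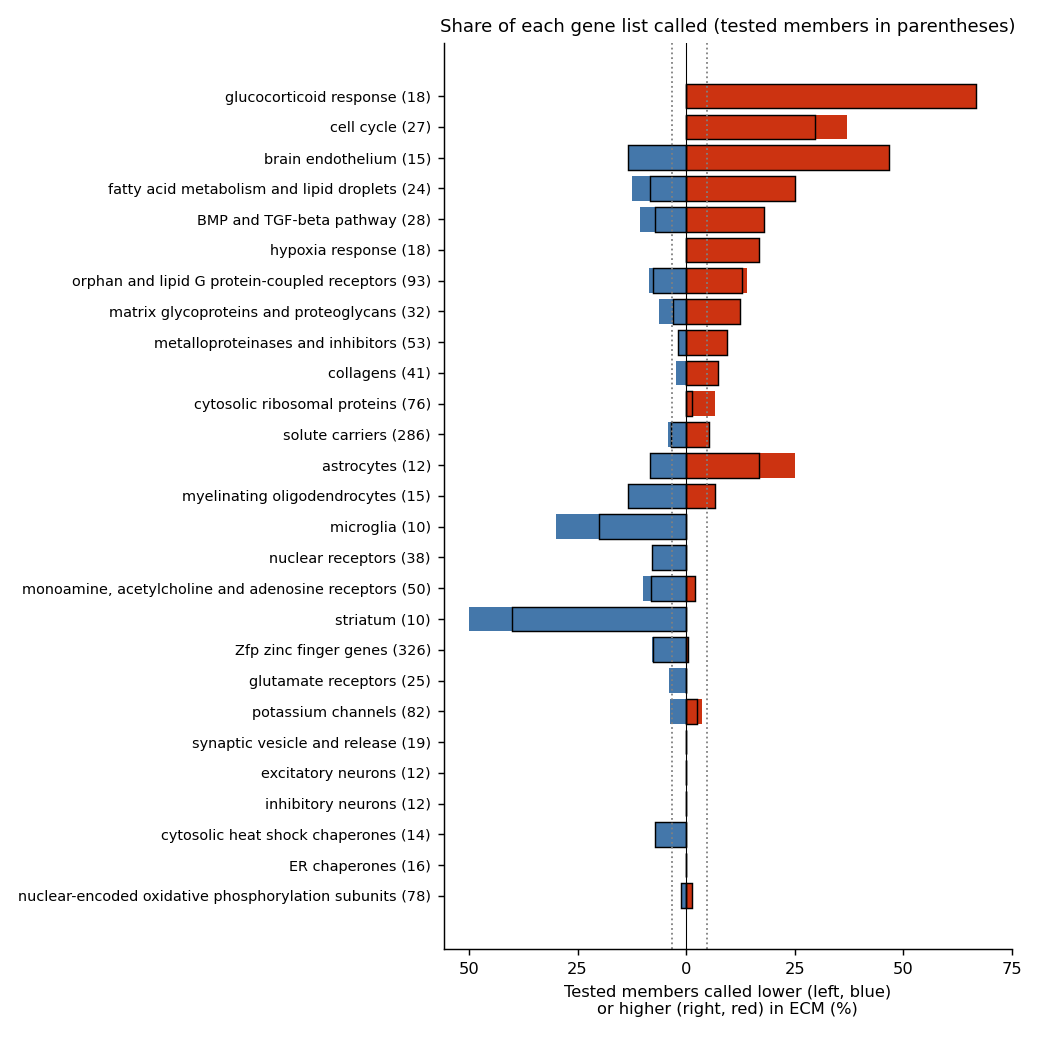
Percent of the tested members of 27 gene lists called higher (right, red) or lower (left, blue) in ECM brain. The 27 were chosen with the results known from 83 lists, among those of pathways, gene families and brain cells. Outlined parts were called in all composition fits, and dotted lines mark the shares over all tested genes outside the immune set, 4.72% higher and 3.25% lower. Of the 27, glucocorticoid-responsive genes reach furthest to the right (66.7%) and striatal markers furthest to the left (50%); of the lists not drawn, monocyte and macrophage markers (100%) and T and NK cell markers (85.7%) rose in larger shares, and erythroid markers (75%) fell in a larger share.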

How the data were processed

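Total RNA of mouse brain was sequenced in 12 libraries, 4 each of control, ECM and artesunate-treated ECM mice, with a NEBNext Ultra kit per the labels' protocols. The submitters' processing notes name FastQC, Trimmomatic, STAR, HTSeq and the build mm10. Tool versions, annotation and strandedness, not given in the sources used here, could change which reads were counted. The deposited table holds raw read counts per gene, made by the authors. The authors' deposited comparison tables hold log2 fold changes, p-values, a normalised signal and FPKM; only the fold changes and p-values of ECM against control were used. In 2212 rows of the count table a name had spilled into the next column; they were put back in their columns, and the 832 that were tested were fitted on 11 libraries, without treated 4, whose values there differed from the authors' tables. The 63 unusable names, 26 of them turned into dates, were left out of annotation.

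Counts were tested with edgeR 4.0.16 (quasi-likelihood, TMM, filterByExpr, 1 mean per group over 12 libraries, Benjamini-Hochberg over 14626 genes, threshold 0.05). GC content and length came from GENCODE M21, with 21842 symbols matched. On simulated counts of 13415 genes for this comparison, 48 of 50 genes with log2 change 2 and 16 of 50 with log2 change 1 were called, 47 and 20 for falls of those sizes, with 4 unchanged genes called. The simulated libraries did not differ in GC content, length, cerebellum or mitochondrial share. Error under the differences of the real libraries was therefore not measured. Alternatives were DESeq2 1.42.0, other scalings and filters, offsets for GC content or length, covariates and left-out libraries. Motifs were searched with Python 3.11.15.

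Named genes were the 15 largest changes per direction (at least 5 CPM in the higher group, groups not overlapping, called in the 4 composition fits), the 10 most abundant called genes per direction, up to 4 called and 2 uncalled members of each of 83 lists, and genes gained or lost by the composition fits. The comparison, lists and named genes were chosen with earlier results of these data known. Libraries held 13342177 to 18886822 reads; intervals cover counting error only. No 2 libraries of a group agreed within sampling noise. A few genes and 1 gene list are not reported here.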

Additional observations from a re-analysis of the deposited data

Results flagged for a closer look

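Each named gene and library measure was screened for a library whose distance to the nearest of its group exceeded Dixon's 95% critical value for 4 samples. Of 274 groups of 4 examined, 25 did so, against 13.7 if 1 in 20 groups is picked out by chance. That rate takes the groups as independent and normally spread. Genes here share libraries, and a group with 3 values of 0 and 1 above 0 always exceeds the critical value, so the 2 numbers make no test. Control 4 stood apart from the other libraries of its group in Slc10a6 at 0.143 CPM (highest, next 0), Nr3c1 at 181 CPM (highest, next 142), Txnip at 51.0 CPM (highest, next 35.8), Pecam1 at 47.0 CPM (highest, next 27.9), Abcb1a at 78.6 CPM (highest, next 56.0), Gpr34 at 21.9 CPM (highest, next 14.8), P2ry12 at 101 CPM (highest, next 45.6), Gabra2 at 91.9 CPM (highest, next 52.0), Adora3 at 1.07 CPM (highest, next 0.518), Tek at 27.0 CPM (highest, next 18.8) and the cerebellum score at 1.42 (next 6.38, lowest). ECM 2 stood apart from the other libraries of its group in Mt1 at 2480.8 CPM (highest, next 1088.7), Apod at 1511.3 CPM (highest, next 834), Tsc22d3 at 308 CPM (highest, next 166), Tgfbi at 32.2 CPM (highest, next 23.9), Slc38a5 at 1.63 CPM (highest, next 0.580) and Rps27l at 42.0 CPM (highest, next 18.1). ECM 3 stood apart from the other libraries of its group in Rgs9 at 19.1 CPM (lowest, next 37.6), Slc40a1 at 3.48 CPM (lowest, next 5.60) and Pdk4 at 42.9 CPM (highest, next 29.4). Control 2 stood apart from the other libraries of its group in Acod1 at 0.194 CPM (highest, next 0), Tsc22d3 at 142 CPM (highest, next 119) and Alas2 at 1.56 CPM (highest, next 0.685). Control 1 stood apart from the other libraries of its group in F10 at 0.0553 CPM (highest, next 0) and Slc38a5 at 5.20 CPM (highest, next 2.66). The cause was not tested.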

How the results depend on the processing

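Of the 128 called genes named in the text, 96 kept their call under every alternative and 0 changed sign. With only the 8 control and ECM libraries, 24 of the 128 lost the call. The number of genes that rose (1037) became 1586 with the cerebellum covariate and 2000 with the GC offset and cerebellum covariate together, and stayed within 1.5 times under the other settings (810 to 1153 with 1 library left out). The number that fell (460) became 148 with only the 8 control and ECM libraries, 937 with the GC offset, 1198 with the cerebellum covariate, 1315 with the mitochondrial covariate, 1168 without control 4, ECM 2 and ECM 3, 708 without control 4, ECM 1 and ECM 3, and 1894 with the GC offset and cerebellum covariate. Leaving out 1 library gave 250 (without control 3) to 550 that fell, and 281 without ECM 1. The number called outside the immune set (1118) became 531, 1935, 2374, 2443, 2330, 1756 and 3456 in the same order, and 706 (without control 3) to 1313 with 1 library left out. Without control 4, ECM 1 and ECM 3, the GC offset with the cerebellum covariate and the length offset were chosen after seeing the data. The cause of these moves was not tested.

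Deviations of same-numbered control and ECM libraries correlated at 0.201, 0.0986, -0.465 and -0.594. Control 4 and ECM 3, which both held little cerebellum RNA, correlated at 0.66. Because library composition enters these correlations, they do not tell whether the replicate numbers pair the libraries. With the number as a replicate block, 784 genes rose, 214 fell and 651 were called outside the immune set.

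The difference in GC rank correlation (0.00308) was reversed to -0.0263 over genes of at least 10 CPM and ran from -0.213 (without control 4) to 0.153 with 1 library left out. The difference in ribosomal protein share of reads (0.167 percentage points, exact permutation p = 0.0571) ran from 0.115 to 0.21 with 1 library left out, and passed the threshold without ECM 3 (0.20969, exact permutation p = 0.0286). Depth limits genes near 1 CPM, where a library holds few reads.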
